A study of Drosophila melanogaster with 12 samples.

Results

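Whole Polr3D EY/+ females of Drosophila melanogaster were measured by Ribo-Seq and by RNA-Seq, and their footprints per RNA are described here gene by gene and class by class. Ribo-Seq sequences the stretches of mRNA that ribosomes shield from nuclease, called footprints, and RNA-Seq counts the mRNA itself. The mutant libraries are 3 of Ribo-Seq and 3 of RNA-Seq, chosen by their genotype label, and make up 6 of the 11 libraries in the count table; the labels list 12. The genotype label is dC53EY22749, a P-element insertion in Polr3D (a Pol III subunit also called C53), and the flies were heterozygous, since homozygotes are not viable. The other 5 libraries, 3 of Ribo-Seq and 2 of RNA-Seq, come from White Dahomey females, called wild type here. Both genotypes carried w1118 in the outbred Dahomey background and were cleared of Wolbachia. The insertion is carried by every tissue of the mutants. Each library was made from a pool of whole flies, the labels give cycloheximide, which stalls cytosolic ribosomes, for the Ribo-Seq samples, and the age of the flies is not given in the sources used here. The labels do not say whether replicates were separate cultures, so p-values measure the spread between these samples.

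RNA polymerase III makes tRNAs, 5S ribosomal RNA and other short RNAs that every round of protein synthesis uses. The number of footprints on an mRNA depends on how much of the mRNA there is, on how many ribosomes each copy carries, and on how long each ribosome stays. Footprints divided by RNA therefore rank mRNAs by ribosome load, and some classes have a well-known place in such a ranking: ribosomal protein mRNAs share a start motif that lets the cell hold them back from ribosomes, and maternal mRNAs of the oocyte are often stored silent. The question for the mutants was whether these classes keep their normal places when Pol III is reduced.

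The mutant Ribo-Seq libraries held 1139473, 3192166 and 1189126 estimated counts on protein-coding genes, against 1127599 to 1495975 in wild type. The mutant RNA-Seq libraries held 24299908, 28718489 and 24819585, against 27855356 and 24467914 in wild type. Ribosomal RNA took 96.1% to 97.7% of the counts in the mutant Ribo-Seq libraries, so footprints limited the precision: the median gene had 43, 117 and 44 footprints in mutants 1, 2 and 3, and 1237, 1373 and 1237 RNA counts. The RNA-Seq libraries fell into sets that cut across genotype, with mutant 2 beside wild type 1 and mutants 1 and 3 beside wild type 2, at Pearson correlations across genes of 0.990 to 0.994 within sets and 0.981 to 0.985 between them. The class order described below had a rank correlation between genotypes of 0.958 in the first set and 0.965 in the second. The label of sex was checked with 25 male markers, sperm and accessory gland genes, whose summed counts were 3, 47 and 99 in the mutant Ribo-Seq libraries and 910, 27 and 34 in the mutant RNA-Seq libraries, against 4, 212 and 0 and against 27 and 10 in wild type. At most 0.0188% of any library fell on them, although 24 of the 25 were above 0 in RNA library 1 of the mutants. The part of these traces in the results was not tested.

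Polr3D itself (chromosome 3L, 18107848 to 18109574, minus strand) was read first. Its RNA was 30.5, 29.6 and 30.5 CPM (protein-coding counts scaled to a total of 1e6) in the mutants, against 51.7 and 63.6 CPM in wild type. Its footprints were 8.78, 15.98 and 10.9 CPM in the mutants, against 28.7, 28.4 and 24.4 CPM in wild type. The genotypes did not overlap in either assay, and both RNA and footprints were lower in the mutants, which carry the insertion in this gene. The log2 difference in RNA was -0.91 ± 0.19 (SE, edgeR adjusted p = 0.281) and in footprints -1.18 ± 0.27 (adjusted p = 0.336). The RNA difference passed the 10% threshold in 4 of 12 alternative fits, with DESeq2 and without the replicate block among them. Whether fewer cells express a gene or each cell holds less of its RNA cannot be told apart in such whole-fly samples. Per RNA, Polr3D carried footprints at log2 -1.53, -0.67 and -1.22 in the mutants, against -0.65 and -0.96 in wild type, where 0 is the median of all genes in that replicate.

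All gene values below are on that scale, log2 of footprint CPM over RNA CPM, each with 0.5 added and centred on the median of the 7683 genes that averaged 10 counts or more in both assays. The other 5076 of 12759 protein-coding genes were below that minimum, and 1785 genes had no footprint in any of the 3 mutant libraries. In the mutants the ratio had an SD of 1.19 over genes, and the middle 90% of genes lay between -1.93 and 1.75. The SD of a gene over the 3 mutants had a median of 0.25, so most of the spread lay between genes and not between replicates. Each ratio joins the Ribo-Seq and RNA-Seq libraries of the same replicate number, and the labels do not say that these pair. SDs and overlaps of ratios therefore depend on that choice of pairs. In the fit, 2228 genes (29.0%) had more footprints per RNA than the protein-coding total and 3403 (44.3%) had fewer (edgeR quasi-likelihood, adjusted p under 0.1). The split depends on the scaling: it was 2701 and 2961 with TMM factors and 2755 and 2732 with DESeq2. Before centring, the median gene lay at -0.21, -0.19 and -0.22 in mutants 1, 2 and 3 relative to the protein-coding total. In wild type 2045 genes (26.6%) had more and 3040 (39.6%) fewer, and of 4757 genes called in both genotypes 4755 had the same direction.

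At the top of the mutants, among 4596 genes that averaged 50 counts or more in both assays, stood 3 genes with under 10 CPM of RNA in each mutant and a mucin-type gene with an RNA level near that of the median gene. His3:CG33803, a copy of the histone H3 gene, had 1815, 1778 and 1631 CPM of footprints and 5.14, 5.19 and 6.45 CPM of RNA in the mutants. That is a log2 ratio of 8.37 ± 0.24 in the mutants (SD, n = 3) and 8.05 in wild type, so it was high in every library. Replication-dependent histone mRNAs end in a stem-loop in place of a poly(A) tail, and how RNA was selected for RNA-Seq is not given in the sources used here. CG30480 followed at 6.70 ± 0.90. BomT3, an immune-induced peptide gene of the Bomanin family, had 257, 266 and 291 CPM of footprints over 2.35, 4.18 and 3.30 CPM of RNA, a ratio of 6.40 ± 0.35. Muc12Ea, a mucin-type gene with a coding length of 9966 nt, had 2892, 2848 and 3037 CPM of footprints over 34.5, 45.9 and 46.5 CPM of RNA, a ratio of 6.31 ± 0.23. In wild type the last 3 were at 6.42, 6.19 and 5.92, so the same genes stood far above the 95th percentile there.

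**Figure D1:**
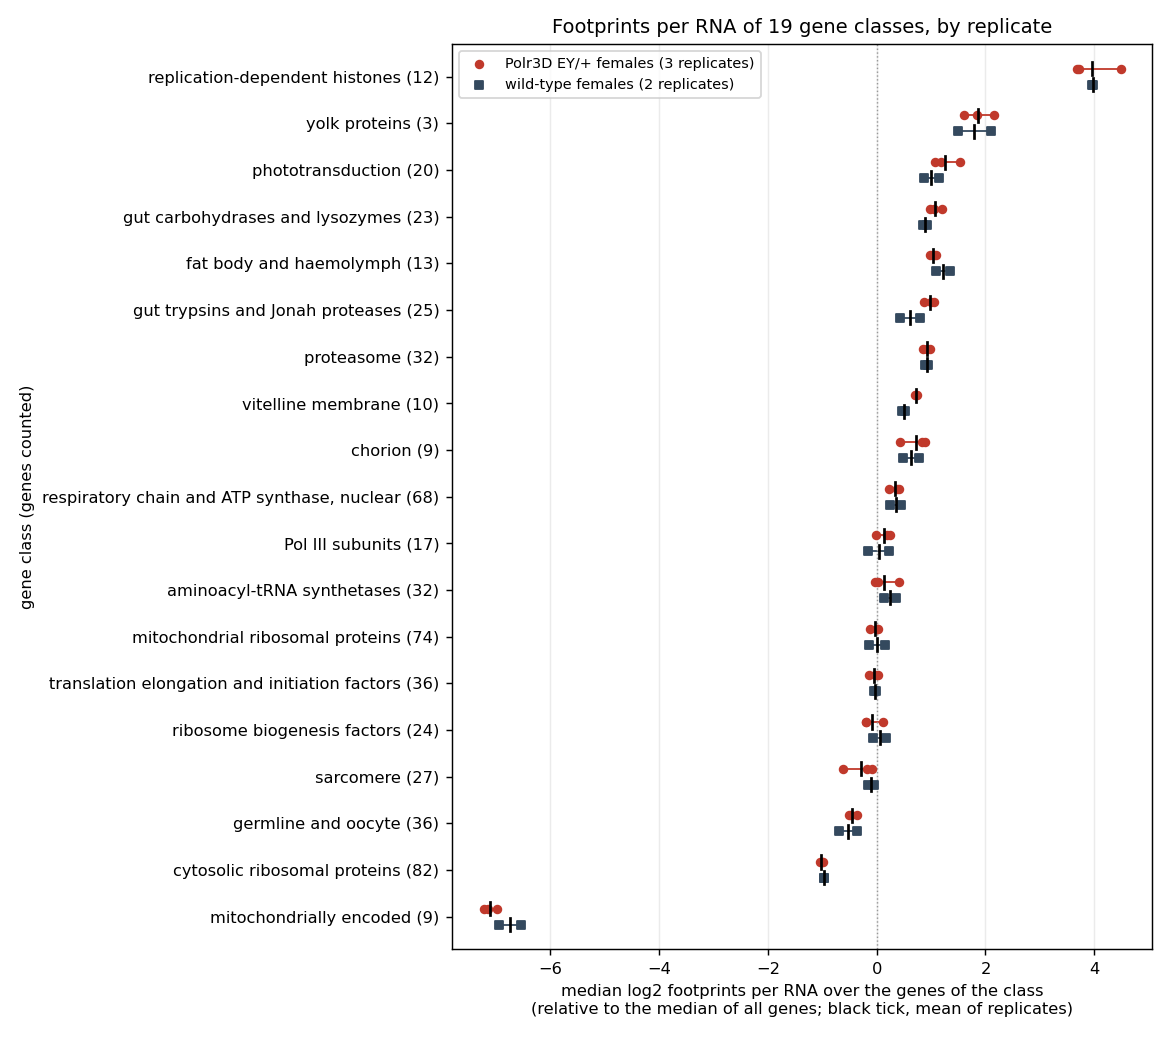
Median log2 footprints per RNA (horizontal axis) of the genes of 19 classes, with the 3 Polr3D EY/+ replicates in red above the 2 wild-type replicates in dark blue and a black tick at each mean. Mutants run from 3.96 for histones to -7.12 for mitochondrially encoded genes, in nearly the wild-type order.

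The order of 19 gene classes in the mutants followed that in wild type. Their rank correlation was 0.967, as a description over 19 classes that share libraries. In the mutants 7 classes held the wild-type rank, 5 were shifted by 1 place and 7 by more, with 3 places as the largest shift. Differences of class medians between mutants and wild type ran from -0.37 to 0.36 on the log2 scale, on a range of over 10 from the top class to the bottom class. Any pair of mutant replicates had a rank correlation of 0.960 to 0.982, and the wild-type pair 0.932. Of the 18 pairs of neighbours in the mutant order, 12 overlapped between replicates, so their places are not distinct. The steps that did not overlap lay below histones, yolk proteins, proteasome and chorion, above ribosomal proteins, and above mitochondrially encoded genes. The plot of class medians by replicate shows these steps as gaps.

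Ovary products stood high in the mutants, with the exception of the germline list. The yolk proteins, made by fat body and follicle cells and taken up by the oocyte, took 6.74% ± 0.10 of footprints and 2.40% ± 0.42 of RNA in the mutants (SD, n = 3). Yp1 had 29083, 29997 and 28276 CPM of footprints and 9349, 7331 and 10852 CPM of RNA. Its ratio was 1.84, 2.23 and 1.60 in the mutants, against 2.14 and 1.49 in wild type. Yp3 was at 1.93 ± 0.20 and Yp2 at 1.27 ± 0.26, and all 3 were called with more footprints per RNA, beside 29.0% of all genes. Yolk RNA was 2.46%, 1.95% and 2.79% in the mutants, against 2.14% and 2.76% in wild type, lower in mutant 2 and wild type 1, the libraries of the first RNA set, whose yolk ratios were the highest.

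Both eggshell lists came lower, with similar class medians in the mutants. The 9 chorion genes, which follicle cells amplify before they lay down the outer eggshell, had class medians of 0.90, 0.43 and 0.84 in the mutants, against 0.48 and 0.77 in wild type, and the genotypes overlapped. Of the 9, 8 had more footprints per RNA and 1 fewer, beside 29.0% and 44.3% of all genes (8 and 0 with DESeq2 or TMM factors). They ran from Cp16 at 1.33 ± 0.27 to Cp7Fc at -0.16 ± 0.23. The 10 vitelline membrane genes, which code for the inner eggshell layer, were at 0.73, 0.71 and 0.74 in the mutants, against 0.47 and 0.52 in wild type, with no overlap. Among single-transcript genes alone that median was -0.023, so its sign rests on genes with several transcripts. Members spread widely, with 6 called higher and 3 lower, beside 29.0% and 44.3% of all genes (6 and 1 with DESeq2 or TMM factors). Vml had 803, 892 and 778 CPM of footprints over 48.9, 36.3 and 52.1 CPM of RNA, a ratio of 4.38 ± 0.37, and Vm32E was at -0.49 ± 0.13.

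The germline and oocyte list sat at the other end. Its median was -0.48, -0.37 and -0.51 in the mutants, against -0.36 and -0.70 in wild type. Of 36 genes counted, 21 had fewer and 6 more footprints per RNA in the mutants, beside 44.3% and 29.0% of all genes. In wild type the counts were 22 and 8. The genes grk, bcd, bam and bgcn were below the count minimum. Of the 36, 21 lay below the median of all genes in every mutant and 10 above it, beside 40.9% and 40.7% of all genes. The highest was Dhc64C, the heavy chain of the dynein motor that many cell types also use, at 3.95 ± 0.28. The lowest was osk, whose mRNA is kept silent until it reaches the posterior pole of the oocyte. It had 19.3, 37.6 and 26.1 CPM of footprints over 998, 890 and 910 CPM of RNA, about 29.7-fold fewer footprints per RNA than the median gene. Other stored mRNAs, picked after their values were seen, were also low but above osk: pgc at -3.84 ± 0.59, nanos at -3.25 ± 0.24 and CycB at -2.96. These are extremes of the list, whose lower quartile in the mutants was -1.61.

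Gene osk was also among the named genes that differed most between genotypes. Its ratios were -5.45, -4.35 and -4.88 in the mutants, against -3.85 and -4.01 in wild type, with no overlap. The difference of ratios was -0.89 ± 0.27 (SE, edgeR adjusted p = 1.0), which does not pass the correction over all genes tested. Across the 12 alternatives it ran from -1.25 to -0.65 with an adjusted p of 0.515 at the lowest. The RNA of osk differed by 0.05 ± 0.17.

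**Figure D2:**
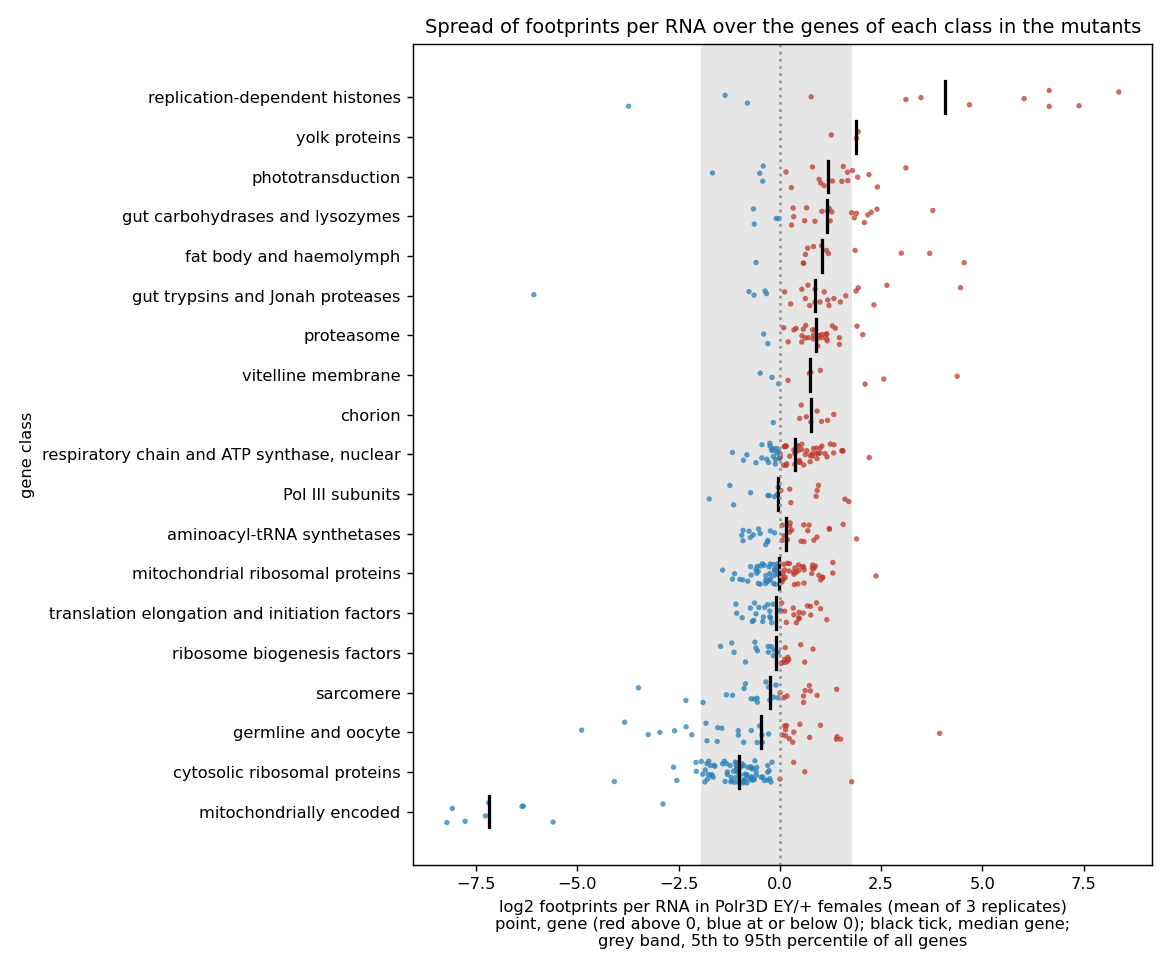
Each point is 1 gene, placed by its mean log2 footprints per RNA over the 3 Polr3D EY/+ replicates (horizontal axis), with classes in the order of their mutant medians, a black tick at the median gene and a grey band over the 5th to 95th percentile of all genes. Ribosomal proteins lie to the left of 0 almost without exception, while germline genes run from osk at -4.89 to Dhc64C at 3.95.

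Digestive enzymes of the gut carried more footprints per RNA than most genes, and here the class medians of the mutants stood above those of wild type. The median of 25 trypsins and Jonah proteases was 1.06, 0.99 and 0.87 in the mutants, against 0.80 and 0.43 in wild type. That of 23 carbohydrases and lysozymes was 1.05, 1.20 and 0.98 in the mutants, against 0.85 and 0.93 in wild type. Neither list overlapped between genotypes, which held for 5 of the 19 classes. The others were the vitelline membrane, mitochondrially encoded and cytosolic ribosomal lists. With 3 values against 2 such a separation is easily met, and for class medians it was not tested. Without overlap the same order inside each RNA set follows, so the sets give no separate check. Gene by gene the shift of the gut lists was less uniform. Of the 25 proteases, 5 lay above wild type without overlap and 0 below; of the 23 carbohydrases and lysozymes, 4 lay above and 1 below; over all genes 8.11% lay above and 8.63% below. No member of these lists was called in the test of the difference of ratios, and 3 of the proteases and 2 of the others had an unadjusted p under 0.05, beside 2.54% of all genes. Such a shift was not particular to the gut. Of 20 phototransduction genes, 7 lay above wild type without overlap and 0 below, beside the same shares of all genes, although the class medians overlapped.

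Inside the gut lists the families differed. Jonah proteases had a median of 1.21 ± 0.04 in the mutants and 0.86 in wild type. Of 14, 13 were called with more footprints per RNA and 0 with fewer, beside 29.0% and 44.3% of all genes. Jon99Fii had 1362, 1523 and 1550 CPM of footprints over 269, 251 and 299 CPM of RNA, a ratio of 2.64 ± 0.13. Jon65Aiv, with the second most RNA of the gut genes, was at 0.99 ± 0.19. Trypsins were lower, at 0.25 ± 0.06 in the mutants and -0.14 in wild type, with 4 of 11 called each way, beside the same shares of all genes. The trypsin with the most RNA, alphaTry, had 2520, 2574 and 2297 CPM of footprints over 3494, 4093 and 3412 CPM of RNA, a ratio of -0.36 ± 0.11.

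The trypsin deltaTry was the lowest of the gut list on paper, but its counts were 0 in mutants 1 and 3 and in wild type 2, and 239 CPM in mutant 2. Its near-identical neighbour gammaTry was at 0 in the same Ribo-Seq libraries, and the sum of both stayed at 0 there, so no ratio is read from it. It is 1 of the 4 trypsins called lower.

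Lysozymes, which digest bacteria in the gut, were among the highest gut genes. LysE had 182, 171 and 185 CPM of footprints over 13.1, 16.9 and 14.2 CPM of RNA, a ratio of 3.77 ± 0.24. Because LysB, LysD and LysE are close copies, their sum was also taken, a choice made after seeing the values. The sum had 2198, 1973 and 1845 CPM of footprints in the mutants, against 1145, 1113 and 1337 CPM in wild type, and 599, 512 and 634 CPM of RNA in the mutants, against 531.1 and 453 CPM in wild type. Its ratio was 2.08, 2.14 and 1.76 in the mutants, against 1.30 and 1.49 in wild type. The 5 mannosidases were at 1.77 ± 0.23 in the mutants and 1.05 in wild type without overlap, and the 10 maltases, which overlapped, at 0.68 ± 0.20 and 0.59. Mal-A4 was the lowest maltase, at -0.63 ± 0.35 in the mutants and -0.35 in wild type.

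Muscle genes had no single level. The median of 27 sarcomere genes was -0.09, -0.62 and -0.17 in the mutants, against -0.05 and -0.16 in wild type; mutant 2 set the lower end, and the genotypes overlapped. In the mutants 14 of the 27 genes had fewer and 6 more footprints per RNA, beside 44.3% and 29.0% of all genes. The giant spring protein gene sls, with a coding length of 32595 nt averaged over its transcripts, led the list at 1.40 ± 0.33. Of the named genes Mlc2, the regulatory light chain of myosin, was lowest, with 49.2, 24.8 and 41.2 CPM of footprints over 204, 228 and 213 CPM of RNA and a ratio of -2.32 ± 0.60. Mf and Tm1, the muscle genes with the most RNA, were at -1.17 ± 0.23 and -0.71 ± 0.09. Myosin heavy chain, Mhc, picked after its value was seen, was at 0.10 ± 0.34, so light and heavy chain of the same motor differed by over 2 on the log2 scale. Of the 27 genes, 5 lay below wild type without overlap and 0 above, beside 8.63% and 8.11% of all genes.

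Mitochondrial genes split by where they are encoded. The 68 nuclear genes of the respiratory chain and ATP synthase had medians of 0.38, 0.22 and 0.42 in the mutants, against 0.24 and 0.45 in wild type. In the mutants 30 were called with more and 17 with fewer footprints per RNA, beside 29.0% and 44.3% of all genes. The counts became 37 and 8 with DESeq2 and 37 and 10 with TMM factors. By complex, the median was highest for complex IV, cytochrome c oxidase, at 0.72 ± 0.12 and lowest for ATP synthase at 0.20 ± 0.09, with complexes I, II and III at 0.32, 0.35 and 0.38. The extremes were UQCR-6.4, a small complex III subunit, at 2.21 ± 0.15 and COX6B at -1.17 ± 0.13. The 74 mitochondrial ribosomal proteins centred on the median of all genes, at 0.01, -0.12 and 0.02 in the mutants, against -0.15 and 0.15 in wild type. They ran from mRpL34 at 2.37 ± 0.29 to mRpS5 at -1.41 ± 0.29. Of the 74, 16 were called higher and 29 lower, beside 29.0% and 44.3% of all genes, a balance that turned to 22 and 19 with DESeq2.

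The genes of the mitochondrial genome, translated by the organelle's own ribosomes, were at the bottom of every library. They took 5.52% ± 0.10 of RNA but 0.042% ± 0.008 of footprints in the mutants. The median of the 9 genes counted was -6.98, -7.14 and -7.23 in the mutants, against -6.96 and -6.54 in wild type, and mutant 1 and wild type 1 nearly touched. The gene with the most RNA, mt:CoI, had 271, 162 and 230 CPM of footprints over 20241, 22046 and 19663 CPM of RNA, a ratio of -6.37 ± 0.46. Next came mt:CoIII, with 48.3, 41.0 and 41.2 CPM of footprints over 12592, 15841 and 13097 CPM of RNA and a ratio of -8.09 ± 0.29. Among the 50-count genes mt:CoII was the highest at -5.60 ± 0.18, and mt:Cyt-b stood at -7.77 ± 0.31. All 9 were called with fewer footprints per RNA in both genotypes, beside 44.3% of all genes in the mutants and 39.6% in wild type. Whether footprints of organelle ribosomes were retained by the library protocol was not tested.

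Cytosolic ribosomal proteins mostly lay low in the mutants, with quartiles at -1.37 and -0.68. They made up 13.7% ± 0.42 of mutant RNA and 5.67% ± 0.20 of mutant footprints (SD, n = 3), against 13.8% and 6.14% in wild type. The median of 82 genes was -1.02, -0.99 and -1.04 in the mutants, against -0.98 and -0.97 in wild type, which did not overlap but differed by 0.04. In the mutants 78 of the 82 had fewer and 2 more footprints per RNA, beside 44.3% and 29.0% of all genes. The counts in wild type were 77 and 2. In all 3 mutants 76 of them lay below the median of all genes. Between genotypes, 14 of the 82 lay below wild type without overlap and 4 above, beside 8.63% and 8.11% of all genes. Small and large subunit were alike, with medians of -0.91 ± 0.02 and -1.06 ± 0.03. RpLP0, the stalk protein gene, had 1078, 1128 and 1032 CPM of footprints over 4041, 4468 and 3793 CPM of RNA, a ratio of -1.72 ± 0.07. RpS3A, on chromosome 4, was at -0.69 ± 0.12.

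A few ribosomal proteins broke the pattern. RpL39, with a coding length of 156 nt, had 445, 480 and 520 CPM of footprints over 161, 166 and 158 CPM of RNA, and its ratio of 1.77 ± 0.14 in the mutants stood beside 1.72 in wild type. RpS29, with a coding length of 171 nt, was at the other end, at 113, 103 and 119 CPM of footprints over 2008, 2634 and 2018 CPM of RNA and -4.09 ± 0.34, beside -3.93 in wild type. Both have short coding sequences, at opposite ends of the list. The other gene called higher was RpS15Ab, a second copy of RpS15A, at 0.61 ± 0.25.

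Most of the machinery around the ribosome and Pol III lay near the median gene, with the cytosolic aminoacyl-tRNA synthetases above it. Biogenesis factors were at -0.19, 0.11 and -0.20 in the mutants, against 0.18 and -0.06 in wild type, with 12 of 24 called lower and 2 higher, beside 44.3% and 29.0% of all genes (7 and 3 with DESeq2, 8 and 3 with TMM factors). They ran from Tsr1 at 0.82 ± 0.67 to Non1, a nucleolar GTPase, at -1.46 ± 0.31. Translation factors were at -0.05 ± 0.09 in the mutants, with 8 of 36 called higher and 19 lower, beside the same shares of all genes, 29.0% and 44.3% (13 and 14 with DESeq2). Among aminoacyl-tRNA synthetases, which load the tRNAs that Pol III makes, the 17 enzymes without a mitochondrial name had a median of 0.62 ± 0.04 in the mutants and 0.78 in wild type without overlap, and the 15 mitochondrial enzymes -0.32 ± 0.13 and -0.14. In the mutants 11 of the 17 were called higher and 3 lower, and of the 15 mitochondrial enzymes 0 higher and 9 lower, beside 29.0% and 44.3% of all genes. The 17 Pol III subunits had medians of 0.24, 0.19 and -0.01 in the mutants, against -0.15 and 0.23 in wild type. Of them 5 were called higher and 5 lower, beside 29.0% and 44.3% of all genes. Within that list Polr3I, at -1.75, and Polr3K, at -1.24, lay below Polr3D.

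Other lists completed the order. Proteasome subunits were among the tightest, at 0.86, 0.99 and 0.92 in the mutants, against 0.90 and 0.94 in wild type. Of the list, 26 of 32 were called higher and 1 lower, beside 29.0% and 44.3% of all genes. Within it the Rpn subunits of the regulatory cap were highest, at 1.05 ± 0.04, and the alpha subunits of the core lowest, at 0.59 ± 0.09. Phototransduction genes were at 1.26 ± 0.24 in the mutants and 1.0 in wild type, and fat body and haemolymph genes at 1.04 ± 0.06 and 1.22. The fat body list was led by FASN1, fatty acid synthase, at 4.55 ± 0.39, followed by the lipid carrier genes Apoltp at 3.70 and apolpp at 3.0 ± 0.17.

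The first place of the histones rests on few gene copies. The annotation lists 112 replication-dependent histone genes, many of them near-identical copies, of which 31 are in the table and 12 passed the count minimum. The class median uses the 12, while the sums below also take copies under the minimum. Genes not among the 31 were not analysed here. The class median was 4.49, 3.73 and 3.68 in the mutants. Summed over copies, a choice made after seeing the values, the ratio in the mutants was 8.25 ± 0.15 for H3, 5.71 ± 0.23 for H2B and 3.64 ± 0.11 for H4, but 0.59 ± 0.13 for H1 and 0.36 ± 0.18 for H2A. The 5 histone types thus differed among themselves far more than their replicates did.

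**Figure D3:**
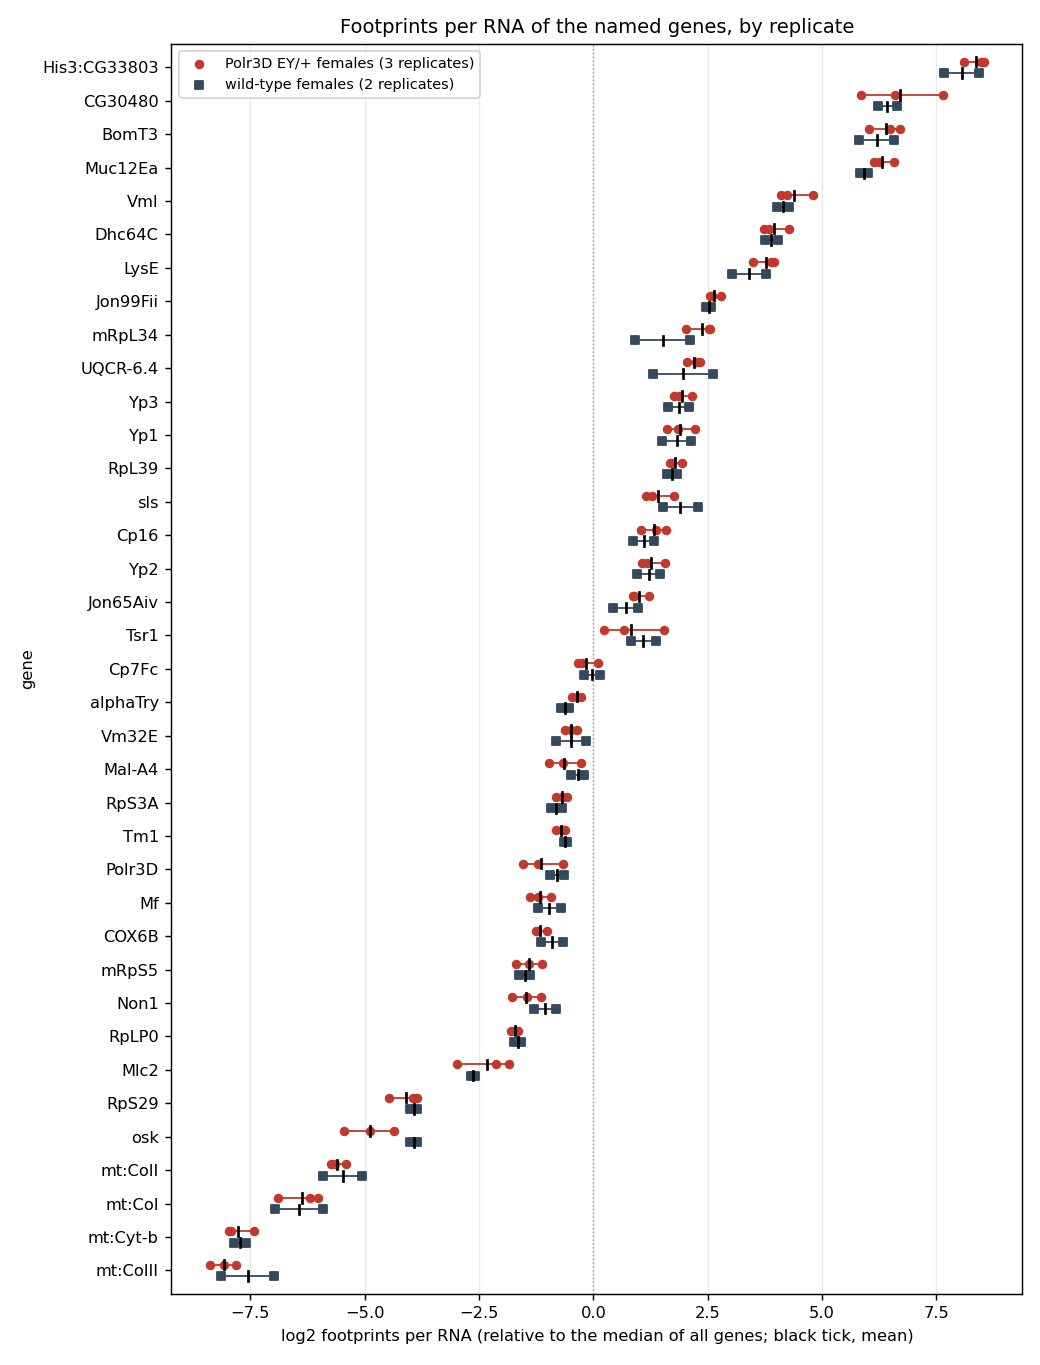
Log2 footprints per RNA (horizontal axis) of 37 of the 38 genes chosen by rule, without deltaTry, with 3 Polr3D EY/+ replicates in red above 2 wild-type replicates in dark blue and black ticks at the means. Genes span from His3:CG33803 at 8.37 to mt:CoIII at -8.09 in the mutants, and most pairs of genotypes overlap.

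**Figure D4:**
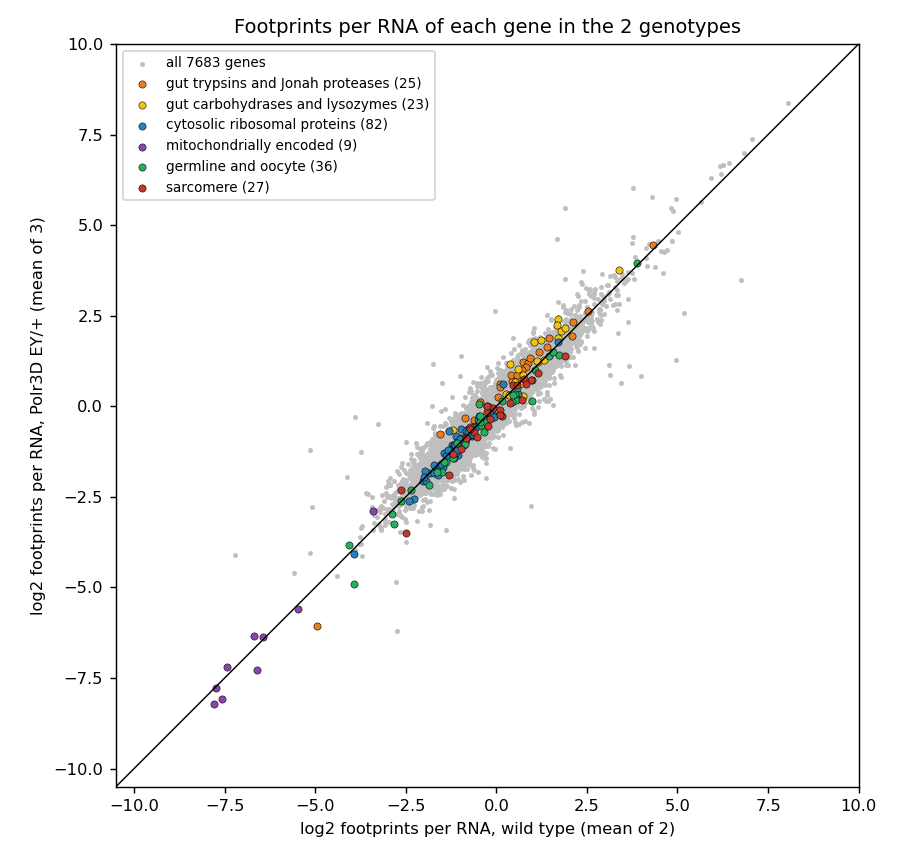
Mean log2 footprints per RNA in Polr3D EY/+ (vertical axis, 3 replicates) against wild type (horizontal axis, 2 replicates) for 7683 genes in grey, with 6 classes coloured and a line of equality. Points follow the line with a Pearson correlation of 0.953, and ribosomal proteins sit together to the lower left of 0.

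Gene by gene the mutant ratios followed those of wild type. Means of the genotypes had a Pearson correlation of 0.953 and a Spearman correlation of 0.955 across genes, which are not independent replicates. Pairs of mutant replicates had rank correlations of 0.898 to 0.906, pairs of a mutant and a wild type 0.855 to 0.924, and the wild-type pair 0.873. The highest of these joined mutant 2 and wild type 1, whose RNA libraries fall into the same set. The difference between genotypes was under 1 on the log2 scale for 98.5% of genes and under 0.5 for 88.7%.

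The test of that difference, the interaction of genotype and assay in edgeR, called 0 of 7683 genes in either direction (0%). In it 195 genes (2.54%) had an unadjusted p under 0.05. Its SE had a median of 0.30 and was under 0.5 for 7126 genes. Changes of single genes that are small beside this SE were not detectable, and larger ones could also fail the correction. Neither osk, at -0.89 ± 0.27 (SE), nor Kr-h1, described below, at -3.46 ± 0.55 (edgeR adjusted p = 0.240), passed. The absence of calls therefore does not exclude changes larger than the SE. DESeq2 called 1 gene (165 with an unadjusted p under 0.05) and the fit without the replicate block also called 1 gene. In both fits it was Kr-h1, a transcription factor of the juvenile hormone response. Single libraries moved the count: 2 genes were higher and 2 lower without mutant 3, 1 and 1 without wild type 1, and 1 and 4 without wild type 2.

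Kr-h1 (chromosome 2L, 6082603 to 6096498) had 0, 7 and 5 footprints in the mutants, against 40, 27 and 12 in wild type. Its RNA was 12.7, 14.0 and 15.1 CPM in the mutants, against 14.0 and 15.7 CPM in wild type, and overlapped. The genotype difference was -3.66 ± 0.48 in footprints (SE, edgeR adjusted p = 0.0344) and -0.20 ± 0.28 in RNA (adjusted p = 1.0). The difference of ratios was -3.46 ± 0.55 (adjusted p = 0.240) and was called in 5 of 12 alternatives, with adjusted p from 2.2e-04 to 1.0. It rests on few footprints: with all 11 libraries, which adds wild type 3 with 12 footprints, the difference was -3.19 ± 0.66 and the adjusted p 0.984.

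The number of genes that differed between the genotypes in 1 assay depended on the model. In footprints, 3 genes (0.0390%) were higher and 3 (0.0390%) lower in the mutants; in RNA 2 (0.0260%) were higher and 1 (0.0130%) lower (edgeR adjusted p under 0.1). With the RNA-Seq sets in place of the replicate block, an alternative chosen after seeing the data, 21 were higher and 9 lower in footprints, and 25 higher and 30 lower in RNA. The lipase-family gene CG6277 rose in both: its footprints were 40.4, 42.9 and 56.3 CPM in the mutants, against 6.02, 9.76 and 9.92 CPM in wild type, and its RNA 47.5, 45.9 and 43.5 CPM, against 10.7 and 19.3 CPM. CG7542 fell in both, with footprints of 130, 168 and 140 CPM in the mutants, against 246, 378 and 328 CPM in wild type, and RNA of 74.2, 77.3 and 71.3 CPM, against 195 and 169 CPM. LysD rose in footprints by 0.82 ± 0.13 and the chitinase-family gene Cht9 by 1.69 ± 0.28, with RNA differences of 0.22 ± 0.13 and 0.59 ± 0.21 that did not pass. CG7567 fell in footprints by 2.23 and Kr-h1 by 3.66, and olf186-M rose in RNA by 1.17. The counts rest on single libraries: without mutant 1 no gene was called in either assay. The differences themselves stayed close without it, at -3.29 for Kr-h1, 2.21 for CG6277 and 0.75 for LysD in footprints and at -1.30 for CG7542 in RNA, while that of CG6277 in RNA was 1.17, against 1.61 with it. Without mutant 2 there were 3 footprint calls higher and 0 lower, without wild type 1 there were 1 and 0, and without wild type 2 there were 5 and 4. In RNA the calls higher and lower were 1 and 4 without mutant 2, 1 and 1 without mutant 3, 1 and 0 without wild type 1, and 4 and 7 without wild type 2.

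**Figure D5:**
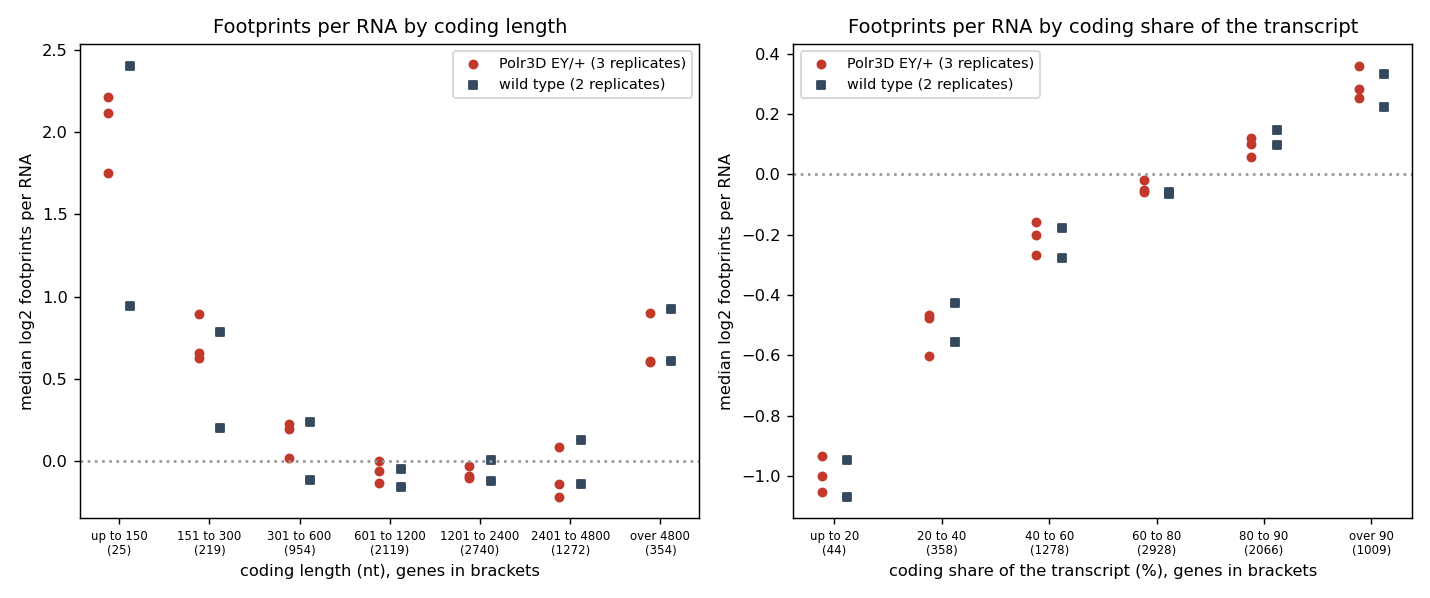
Median log2 footprints per RNA (vertical axis) of genes binned by coding length in nt (left) and by coding share of the transcript in percent (right), with 3 Polr3D EY/+ replicates in red to the left of 2 wild-type replicates in dark blue. Medians rise with coding share in both genotypes, from -1.0 to 0.30 in the mutants. By coding length they are highest up to 150 nt. Their means over replicates are above 0 up to 600 nt and over 4800 nt, and below 0 in between.

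The mutant ranking also followed the shape of the transcript. Genes whose coding sequence filled up to 20% of the transcript had a median of -1.0 ± 0.06 in the mutants and -1.01 in wild type, and those over 90% had 0.30 ± 0.06 and 0.28. Footprints fall mainly on coding sequence while RNA-Seq covers the whole transcript, and the ratio was not corrected for this. By coding length, medians were 2.03 ± 0.24 in the mutants for 25 genes of up to 150 nt, 0.73 ± 0.15 for 219 genes over that and up to 300 nt, between -0.09 and -0.06 in the bins over 600 and up to 4800 nt, and 0.70 ± 0.17 for 354 genes over 4800 nt. In wild type the 25 shortest genes were at 0.94 and 2.40, so their level is loosely fixed. By chromosome, medians lay between -0.09 and 0.08 for X, 2L, 2R, 3L and 3R, while the 54 genes of chromosome 4, the small heterochromatic chromosome, were at -0.78, -1.18 and -0.85 in the mutants, against -0.89 and -0.85 in wild type. By RNA level, which is also the denominator of the ratio, mutant medians were 1.19 ± 0.05 for genes up to 10 CPM, -0.26 ± 0.02 from 30 to 100 CPM, 0.26 ± 0.01 from 300 to 1000 CPM and -0.60 ± 0.04 above 1000 CPM, with no steady trend. The count minimum is a higher CPM in Ribo-Seq than in RNA-Seq, since Ribo-Seq libraries held fewer protein-coding counts. Genes with little RNA passed it mainly where their footprints were high, so the level of the lowest bin is not read.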

How the data were processed

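The authors trimmed reads with Cutadapt and ran Salmon on an index of all BDGP6 transcripts, noncoding ones included. The deposited table holds the authors' estimated counts per transcript, as whole numbers, not normalized. Salmon divides fragments shared by transcripts or gene copies with a model, so counts of near-identical genes are uncertain. Selection of RNA for RNA-Seq and the use of strand are not given in the sources used here.

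Of 28367 rows, 28345 matched the Ensembl annotation (release later than the authors'), and 26490 transcripts were summed into 12759 protein-coding genes. Every column was matched to a sample; wild-type RNA replicate 3 was not analysed here. Counts were scaled to the protein-coding total (CPM). Log2 ratios used a pseudocount of 0.5 CPM and were paired by replicate number, although these numbers did not pair the samples (last section). SDs and overlaps of ratios rest on that pairing. The edgeR (4.0.16, R 4.3.3) quasi-likelihood model had replicate, genotype, assay and their interaction, on 10 libraries without wild-type Ribo-Seq replicate 3 (its RNA partner was not analysed here), with Benjamini-Hochberg adjustment and a threshold of 0.1. It was tested on simulated data with independent libraries. These lacked the RNA-Seq sets seen here, so that test does not cover them. DESeq2 (1.42.0), other scalings, filters, single-transcript genes and left-out replicates were alternatives.

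Genes named are Polr3D, the highest and lowest of each ovary, gut, muscle, mitochondrial and ribosomal list (averaging 50 counts or more in both assays), the 4 highest and 4 lowest of all genes, and the 2 with most RNA per tissue or group; other genes follow from calls or were chosen after their values were seen. The mutant libraries and all 20 gene lists were chosen with earlier results of these data known. Medians of lists are descriptions without a test.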

Additional observations from a re-analysis of the deposited data

How the results depend on the processing

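The rank correlation of class order was 0.958 to 0.986 over 13 alternatives: 0.986 per coding and transcript length, 0.980 with single-transcript genes, 0.972 with mutants 1 and 2 only, 0.974 with group means that added the third wild-type Ribo-Seq library, 0.961 for pooled lists, 0.958 in the first RNA set (a split chosen after seeing the data) and 0.963 to 0.984 without 1 mutant replicate. Of 245 class medians under alternatives 179 stayed within the replicate spread, 62 moved and 4 changed sign: Pol III subunits were -0.020 per length, -0.0086 with single-transcript genes and -0.036 with group means, and the vitelline membrane -0.023 with single-transcript genes. Of 500 values of named genes 484 kept their call and none changed direction.

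Single-transcript genes gave 966 higher and 1188 lower calls in the mutants, and 844 and 1042 in wild type, since 3047 genes were tested. For the interaction, higher and lower calls were 0 and 1 with DESeq2, without the replicate block and with the RNA split in its place, 3 and 2 without the count filter, and 0 to 2 and 0 to 4 when a replicate was left out. For footprints between genotypes, higher calls were 9 with DESeq2, 10 with 11 libraries, 17 without the filter, 21 with the RNA split and 0 to 5 with a replicate left out; lower calls were 5 with 11 libraries, 9 without the filter, 9 with the split and 0 to 4. For RNA they were 13 and 10 with DESeq2, 8 and 9 without the filter, 9 and 12 without the block, 25 and 30 with the split, and 0 to 4 and 0 to 7 with a replicate left out. The cause was not tested.

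The replicate numbers did not pair the samples: correlations of deviations were -0.61 to 0.07 for 13 pairs with the same number and -0.43 to 0.61 for 24 others. Without the replicate block the assay contrast in the mutants called 2347 and 3500 genes. A leave-out fit that leaves 1 wild-type replicate assumes that it varies like the mutants. The median SE of the interaction was 0.30 over all genes, and the parts of depth and replicate spread in it were not tested.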
